A study of Mus musculus with 105 samples.

Results

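A group of 7 genes of the mouse X chromosome that are known to escape X inactivation was followed through the first 4 days of differentiation of female embryonic stem cells. They are Kdm6a, Kdm5c, Ddx3x, Eif2s3x, Utp14a, Pbdc1 and the non-coding RNA gene 5530601H04Rik. The rule lists the genes by name, as genes with a record of escape, and uses no measured value. It was set with earlier results of these data known. All 7 were present among the 52016 genes of the allele-specific tables, which hold 2512 X-linked genes outside the deleted region given below, and all 7 were among the 518 X-linked genes with enough counts to be tested.

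Female mammals silence 1 of their X chromosomes early in development. Silencing begins on the X that makes the long non-coding RNA Xist, which spreads along it, and most of its genes are then shut down. Escape genes keep being transcribed from the inactive X (Xi) as well as from the active X (Xa), and several of them, Kdm6a, Kdm5c, Ddx3x and Eif2s3x among these 7, have a homologue on the Y chromosome. Kdm6a and Kdm5c encode histone demethylases, for H3K27 and H3K4 methylation. Ddx3x encodes a DEAD-box RNA helicase, Eif2s3x the gamma subunit of the translation initiation factor eIF2, and Utp14a a protein of the small-subunit processome that makes ribosomes. Pbdc1 is a little-studied protein-coding gene, and 5530601H04Rik is a non-coding RNA gene that starts beside it and runs the other way.

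All cells derive from TX1072, a female embryonic stem cell line from a cross of the mouse strains C57BL/6 (B6) and CAST/EiJ (Cast), with 1 X chromosome of each strain. In TX1072 the B6 Xist gene lies behind a promoter that doxycycline can switch on, by way of rtTA placed at Rosa26. In TXdXicB6 the X-inactivation centre (Xic), with Xist and that promoter, was deleted from the B6 chromosome, so that the Cast X is the inactive one. In TXdXicCast it was deleted from the Cast chromosome and the B6 X, which keeps the promoter, is the inactive one. Genes in a window of 773 kb around Xist (mm10, chrX:103182257-103955531) were set aside as the deleted region in both lines, whose own break points differ slightly. Each deletion line is 1 clone. Differentiation was started by withdrawal of 2i and Lif, and cells were collected undifferentiated (day 0) and at days 1, 2, 3 and 4. Bulk RNA-seq covered 3 differentiations per day of each deletion line (30 libraries) and of TX1072 (15 libraries), and single TX1072 cells were sequenced from 1 culture per day.

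Total counts ranged from 20246434 to 49962859 per library in TXdXicB6, from 16906263 to 57920260 in TXdXicCast and from 19827011 to 39628784 in TX1072. Allele-specific counts, from reads that overlap a site at which B6 and Cast differ, made up a median of 31.4%, 31.2% and 19.9% of them. Some libraries stood apart. Only 5.21% of counts were allele-specific in TXdXicB6 day 0 replicate 1, 9.57% in day 2 replicate 2 and 20.3% in day 2 replicate 1, and 22.9% in TXdXicCast day 3 replicate 3. The RNA of undifferentiated TXdXicCast cells was degraded and was fragmented under other conditions, so RNA quality and day cannot be told apart in that line where day 0 is the reference. Autosomal allele-specific counts in the deletion lines were split near evenly in every library, with 50.55% to 51.04% from B6.

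The site sequences show what an allelic count rests on. Each line gives 25 bases of the transcript strand around 1 exonic site that differs between the strains, with the B6 base at position 13 in capitals, since a read across this base is assigned to its chromosome. The Cast base is given after each position.

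Kdm6a: cgggcggacaaaAgaagaaccagct
Kdm5c: caagcctgaggaGtccctggcttac
Ddx3x: ccatggcggcagTcgaggatttggt
Eif2s3x: cggtgcagttggAgctttacctgaa
Utp14a: cgtgcctgtcatGcagagcaatcca
Pbdc1: gagttccgtgagAtttttgagacac
5530601H04Rik: atgaccaactagAccatcccctgct

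Counted from 1 at the 5′ end of each window, with the B6 base first, the substitutions were A13G in Kdm6a (chrX:18275128, coding exon 27 of 29), G13A in Kdm5c (chrX:152271542, coding exon 23 of 26), T13C in Ddx3x (chrX:13291286, coding exon 16 of 17) and A13C in Eif2s3x (chrX:94197384, coding exon 10 of 12, minus strand). They were G13C in Utp14a (chrX:48282268, coding exon 15 of 15), A13G in Pbdc1 (chrX:105082013, coding exon 4 of 6) and A13G in 5530601H04Rik (chrX:105041080, exon 5 of 5, minus strand). The number of such sites in exons differed widely, with 74 in Pbdc1, 33 in 5530601H04Rik, 25 in Kdm6a, 15 in Utp14a, 12 in Kdm5c, 5 in Ddx3x and 2 in Eif2s3x, beside a median of 5 over 948 X-linked protein-coding genes. The bulk allelic values of Eif2s3x thus come from 2 sites at most, while unspliced UMIs can also cover sites in introns (130 sites in the whole gene body). Allele-specific counts per library in the deletion lines ran from 544 to 8966 for Kdm5c and from 73 to 2403 for Kdm6a, but only from 20 to 522 for 5530601H04Rik, whose shares are the least precise of the group.

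The genes are spread over the chromosome. Ddx3x (chrX:13280970-13294052) and Kdm6a (chrX:18162575-18279936) lie near one end, 90.2 and 85.2 Mb from Xist, Utp14a (chrX:48256862-48282453) lies 55.2 Mb away, Eif2s3x (chrX:94188707-94212862) 9.25 Mb away, and Kdm5c (chrX:152233020-152274535) 48.7 Mb away on the other side. Pbdc1 (chrX:105079756-105117090) and 5530601H04Rik (chrX:105037197-105079609) are neighbours 1.60 and 1.55 Mb from Xist. Their starts in the GENCODE vM21 annotation face away from each other across 146 bases, shown here because both genes start from it, with each CG pair in capitals (plus strand, mm10, chrX:105079610-105079755).

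Pbdc1 and 5530601H04Rik starts: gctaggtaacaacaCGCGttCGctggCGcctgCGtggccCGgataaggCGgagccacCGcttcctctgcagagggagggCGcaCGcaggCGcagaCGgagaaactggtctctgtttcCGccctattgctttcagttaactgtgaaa

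Promoters were taken for all 7 genes from RefSeq on GRCm38.p6, as 250 bases before to 50 bases after the RefSeq start. For 5530601H04Rik this start lies inside the gene as GENCODE draws it (window chrX:105070075-105070374), so its values describe another stretch than the one shown. The ratio of observed to expected CG pairs ran from 0.694 in 5530601H04Rik to 1.10 in Pbdc1, beside a median of 0.362 over 1046 X-linked promoters. Of these promoters, 1.43% reached the value of Pbdc1, and 5.74% (Utp14a) to 21.1% (5530601H04Rik) reached those of the other genes. Searched on both strands, the letters AAGATGGCG of the YY1 motif were found in the promoter of Kdm5c alone among the 7 (1.49% of 27025 promoters hold them). The letters CCGGAAG of the ETS motif were found in those of Pbdc1 and 5530601H04Rik and in 9.12% of all promoters, and do not overlap the YY1 letters. The letters CCAAT were found in those of Kdm5c and Utp14a and in 37.9% of all promoters. The letters searched for NRF1, CTCF and CRE were found in none of the 7. These matches are descriptions of the letters only.

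The first question was how much of each gene's RNA came from the inactive allele while the X chromosome was being silenced. In both lines Xist counts came almost wholly from the chromosome that keeps the Xic, at least 99.8% in every library, and the total level of Xist went from 0.654 CPM (counts scaled to a library of 1000000) on day 0 to 514.8 on day 4 in TXdXicB6 and from 0.675 to 340.5 in TXdXicCast. The share of the inactive allele for the median X-linked gene with at least 50 allele-specific counts went from 48.9% ± 0.228 (SD, n = 3) on day 0 to 28.8% ± 1.46 on day 4 in TXdXicB6, and from 49.6% ± 0.436 to 38.0% ± 0.216 in TXdXicCast. On day 4 all 7 genes lay above this median in all 3 libraries of TXdXicB6, and all but Eif2s3x did in TXdXicCast. On day 0, for comparison, 4 genes lay above the median in all 3 libraries of TXdXicB6 and 0 in TXdXicCast. The 4 were Kdm5c, Ddx3x, Eif2s3x and Utp14a. Eif2s3x already lay 22.0 percentage points above it, and Utp14a lay 3.93 points above it on day 0 and 3.33 on day 4. As many genes lie above a median as below it, and the share of all X-linked genes above it in all 3 libraries was not taken. These counts are thus a description. In bulk RNA, fewer cells with an inactive X and less RNA per cell from the inactive allele cannot be told apart.

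**Figure D1:**
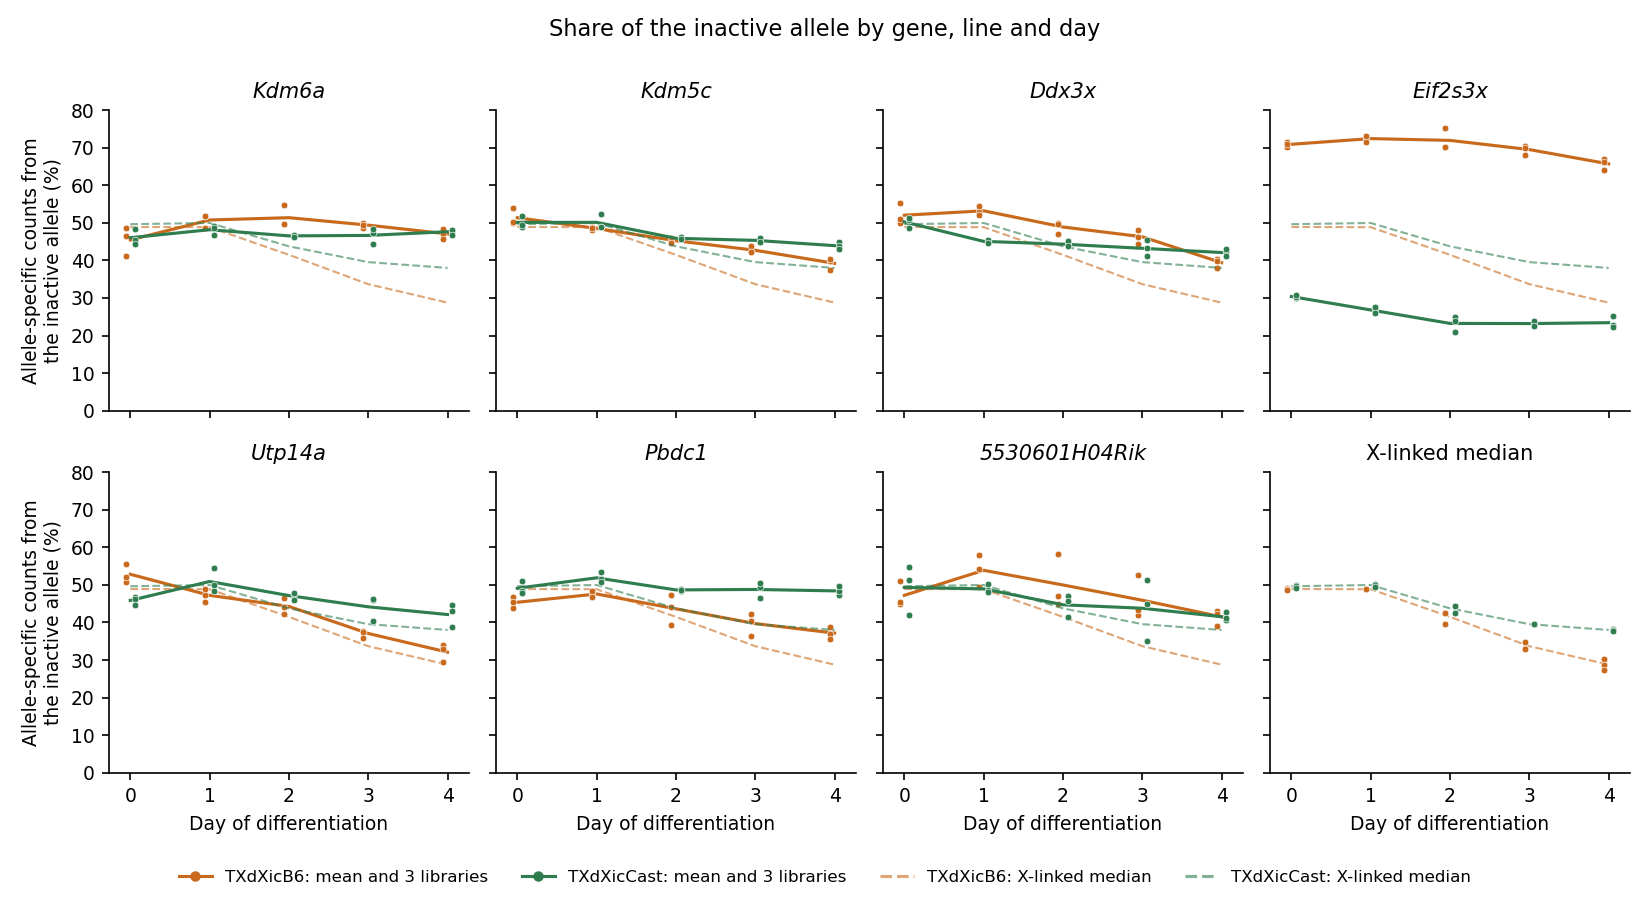
Share of allele-specific counts from the inactive allele (y axis, percent) by day of differentiation (x axis) for the 7 escape genes and the X-linked median, with points for the 3 libraries, solid lines for their mean and dashed lines for the X-linked median of the same line (orange TXdXicB6, green TXdXicCast). The dashed lines end at 28.8% and 38.0% on day 4, and the Kdm6a lines end at 47.0% and 47.6%.

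Kdm6a, the H3K27 demethylase, had a near-even share from both X chromosomes throughout in the bulk deletion-line libraries. Its single-cell shares of days 3 and 4, given below, were lower. In TXdXicB6 the inactive allele gave 41.1%, 48.7% and 46.5% of allele-specific counts in the 3 libraries of day 0 and 47.0%, 48.3% and 45.8% on day 4. In TXdXicCast it gave 45.5%, 48.3% and 44.3% on day 0 and 47.8%, 48.2% and 46.9% on day 4. Days 0 and 4 overlapped in both lines, and the lowest value, 41.1%, came from the day 0 library with few allele-specific reads, where it rested on 73 counts. The log2 Xi:Xa ratio (inactive over active allele) changed by -0.0049 (SE 0.099, adjusted p = 1, edgeR quasi-likelihood test) in TXdXicB6 and by 0.086 (SE 0.097, adjusted p = 0.61) in TXdXicCast, and it passed the threshold on no day. Among X-linked genes with at least 50 allele-specific counts in every library of days 0 and 4, 2 of 152 genes in TXdXicB6 (1.32%) and 14 of 251 in TXdXicCast (5.58%) had a mean share on day 4 at or above that of day 0, and Kdm6a was among them in both lines, at 1.61 and 1.60 percentage points above its day 0 share. In TXdXicB6 this rests on the library of 73 counts: without replicate 1, a setting added after the values were seen, the means were 47.6% on day 0 and 47.1% on day 4, a change of -0.55 points. Measured from day 1 the ratio changed by -0.21 in TXdXicB6 (adjusted p = 0.0793).

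Kdm5c, the H3K4 demethylase, lost part of its inactive-allele share. In TXdXicB6 it gave 53.9%, 49.9% and 50.2% on day 0 and 39.8%, 40.3% and 37.6% on day 4, and in TXdXicCast 51.9%, 48.9% and 49.5% on day 0 and 44.9%, 43.9% and 43.1% on day 4. The libraries of days 0 and 4 did not overlap in either line. The log2 Xi:Xa ratio fell by 0.66 in TXdXicB6 (SE 0.067, adjusted p = 4.82e-13) and by 0.35 in TXdXicCast (SE 0.061, adjusted p = 5.22e-06), and was first lower than on day 0 at day 2 in both (adjusted p = 0.000467 and 0.00134).

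The helicase gene Ddx3x followed a similar course. Its share in TXdXicB6 was 49.9%, 51.0% and 55.2% on day 0 and 40.4%, 39.9% and 37.9% on day 4, and in TXdXicCast 50.9%, 51.3% and 48.5% on day 0 and 42.3%, 42.9% and 41.1% on day 4, again without overlap. The ratio fell by 0.75 on the log2 scale in TXdXicB6 (SE 0.071, adjusted p = 3.67e-14) and by 0.47 in TXdXicCast (SE 0.067, adjusted p = 4.51e-08). The days at which it was called are as follows. In TXdXicCast the share already stood at 45.2%, 45.5% and 44.5% on day 1 (log2 change -0.29, adjusted p = 0.000911), and measured from day 1 in place of the degraded day 0 the change to day 4 was -0.18 and did not pass (adjusted p = 0.0597). In TXdXicB6 it was lower by day 3 (-0.37, adjusted p = 3.26e-05), while the day 2 value of -0.20 passed only with the replicate number as a block (adjusted p = 0.0748 without and 0.0208 with it).

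Eif2s3x, the eIF2 gamma gene, had a strain bias in both deletion lines. The Cast allele gave most of its counts in both lines on day 0, so that the inactive allele gave 71.5%, 70.2% and 70.9% in TXdXicB6 but 30.1%, 30.3% and 30.8% in TXdXicCast. Day 4 shares were 64.0%, 66.9% and 66.1% in TXdXicB6 and 25.2%, 22.8% and 22.3% in TXdXicCast, below day 0 in every library of both lines. The ratio fell by 0.34 (SE 0.090, adjusted p = 0.0038) and by 0.51 (SE 0.084, adjusted p = 1.22e-06), and the TXdXicB6 value lost its call without replicate 1 (-0.27, adjusted p = 0.0654). Measured from day 1, the changes were -0.46 (adjusted p = 9.09e-06) and -0.25 (adjusted p = 0.0282), so that the line with the larger fall depends on the baseline. Averaged over both lines, which centres a bias that is the same in each, the inactive share moved from 50.6% to 44.6%. The X-linked median moved from 49.3% to 33.4%. The same log2 fall moves a biased share by fewer points than an even one, so the sizes of these moves are not compared. The share from B6 on day 0 was 29.1% ± 0.628 in TXdXicB6 and 30.4% ± 0.381 in TXdXicCast but 1.96% ± 0.589 (SD, n = 3) in TX1072, whose libraries had another kit and shorter reads; the reason for this gap was not tested, and no allelic value of Eif2s3x in TX1072 is used further.

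Utp14a is the ribosome biogenesis gene of the group. In TXdXicB6 its share went from 55.7%, 50.7% and 52.1% on day 0 to 33.9%, 32.9% and 29.5% on day 4, close to the X-linked medians of 30.3%, 28.6% and 27.4% in the same libraries. In TXdXicCast it was 46.6%, 46.2% and 44.7% on day 0, 49.9%, 48.4% and 54.4% on day 1 and 44.5%, 43.0% and 38.8% on day 4. The ratio in TXdXicB6 fell by 1.18 (SE 0.088, adjusted p = 1.06e-18) and was lower from day 1 on (-0.27, adjusted p = 0.0369). In TXdXicCast it was higher than on day 0 at day 1 (0.30, adjusted p = 0.00379, a direction called for 5.98% of X-linked genes on that day), and the day 4 change of -0.20 (SE 0.080) had an adjusted p of 0.0679 without and 0.0157 with the replicate block. The day 1 changes of -0.27 in TXdXicB6 and 0.30 in TXdXicCast were both shifts toward the B6 allele. The inactive share averaged over both lines was 49.3% on day 0 and 49.0% on day 1. Every day 4 library lay below every day 0 library in both lines. The TXdXicCast change also passed without replicate 1 (-0.27, adjusted p = 0.0421) and from day 1 (-0.50, adjusted p = 2.33e-06).

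Pbdc1 and 5530601H04Rik are neighbours, and the difference between them was not tested. The Pbdc1 share in TXdXicB6 was 43.9%, 46.8% and 45.4% on day 0 and 36.9%, 38.9% and 35.6% on day 4, without overlap, whereas in TXdXicCast it was 48.4%, 47.8% and 51.0% on day 0 and 47.2%, 48.3% and 49.7% on day 4, with overlap. The ratio fell by 0.52 in TXdXicB6 (SE 0.10, adjusted p = 3.34e-05), from day 3 on, and its change in TXdXicCast was -0.062 (SE 0.099, adjusted p = 0.747) from day 0 and -0.21 (adjusted p = 0.101) from day 1. For 5530601H04Rik the shares were 45.0%, 45.5% and 51.1% on day 0 and 43.1%, 42.2% and 39.2% on day 4 in TXdXicB6, and 54.7%, 51.2% and 42.1% on day 0 and 40.6%, 42.7% and 41.2% on day 4 in TXdXicCast. Its ratio changed by -0.39 (SE 0.23, adjusted p = 0.315) and -0.37 (SE 0.22, adjusted p = 0.264), neither past the threshold. Measured from day 1 the TXdXicB6 change was -0.71 and passed (adjusted p = 0.00698), while that in TXdXicCast was -0.45 (adjusted p = 0.16). Leaving out 1 replicate moved the changes from day 0 widely, to -0.16 in TXdXicB6 and -0.63 in TXdXicCast without replicate 3, and to -0.26 in TXdXicCast without replicate 1 or 2, and none passed. The gene had 20 to 522 allele-specific counts per library.

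Counted together, 5 of the 7 genes had a lower Xi:Xa ratio on day 4 than on day 0 in TXdXicB6, where 59.1% of the 518 X-linked genes tested did, and 3 of 7 did in TXdXicCast, where 46.3% did. None of the 7 was higher in either line (0.965% and 1.16% of X-linked genes were). With all 7 genes tested, 4 passed neither way in TXdXicCast and 2 in TXdXicB6. The replicate block added Utp14a to the lower genes in TXdXicCast, as given above. The median log2 change of the 7 genes was -0.52 in TXdXicB6 and -0.35 in TXdXicCast, beside -1.21 and -0.68 over all X-linked genes tested. Of 14578 autosomal genes, 14.8% and 20.7% changed their allelic ratio in either direction over the same days. Without the 4 libraries with the lowest allele-specific share the counts were again 5 and 3, with Kdm6a at -0.026 and Utp14a at -1.15 in TXdXicB6.

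On no earlier day was a count higher. In TXdXicB6 the ratio was lower for 1 gene on day 1 (5.02% of X-linked genes), for 2 on day 2 (28%) and for 4 on day 3 (51.4%). In TXdXicCast it was lower for 2 genes on day 1 (6.56%) and for 3 on both day 2 (26.4%) and day 3 (36.9%). The 3 genes were Kdm5c, Ddx3x and Eif2s3x on days 2, 3 and 4. In TXdXicB6 Utp14a was called first, then Kdm5c, Ddx3x and Pbdc1, and last Eif2s3x. On day 1 Utp14a had shifted toward the B6 allele in both lines, so its place in this order is not read as early silencing.

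Because the whole chromosome moved, a second comparison set each gene against the X-linked median of its own library. By day 4 in TXdXicB6, 6 of the 7 genes had gained on the median, where 15.6% of X-linked genes did. Kdm6a gained most, by 1.21 on the log2 scale (SE 0.10, adjusted p = 8.96e-18), followed by Eif2s3x at 0.89 (SE 0.097, adjusted p = 2.63e-13), 5530601H04Rik at 0.84 (SE 0.23, adjusted p = 0.000865) and Pbdc1 at 0.70 (SE 0.099, adjusted p = 2.08e-09). Kdm5c and Ddx3x gained 0.56 and 0.48. Utp14a alone did not pass, at 0.047 (SE 0.087, adjusted p = 0.655), and its value turned negative without replicate 2 (-0.023). Measured from day 1 it gained 0.31 and passed (adjusted p = 0.000644), and 5530601H04Rik gained 0.50 (adjusted p = 0.0197).

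In TXdXicCast 5 of 7 had gained on the median by day 4, where 14.7% of X-linked genes did. Kdm6a again came first at 0.76 (SE 0.10, adjusted p = 9.04e-10), then Pbdc1 at 0.62 (SE 0.099, adjusted p = 1.02e-07) and Utp14a at 0.48 (SE 0.080, adjusted p = 2.27e-07). Kdm5c gained 0.33 (adjusted p = 0.000246) and Ddx3x 0.21 (adjusted p = 0.0287). The Ddx3x call was lost without replicate 2 (adjusted p = 0.0991) or replicate 3 (0.0902). Its value ran from 0.18 to 0.22 when a replicate was left out. Eif2s3x, at 0.17 (SE 0.089, adjusted p = 0.0945), and 5530601H04Rik, at 0.31 (SE 0.22, adjusted p = 0.234), did not pass, and the latter was 0.046 without replicate 3. Measured from day 1 Eif2s3x gained 0.45 and passed (adjusted p = 7.62e-06), Ddx3x gained 0.52 and Utp14a 0.20. On day 2 the gain was already called for 4 genes in TXdXicB6 (9.27% of X-linked genes), led by Kdm6a (0.74) and Eif2s3x (0.60), and for 3 in TXdXicCast (13.3%), which were Utp14a (0.44), Kdm6a (0.38) and Pbdc1 (0.32).

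**Figure D2:**
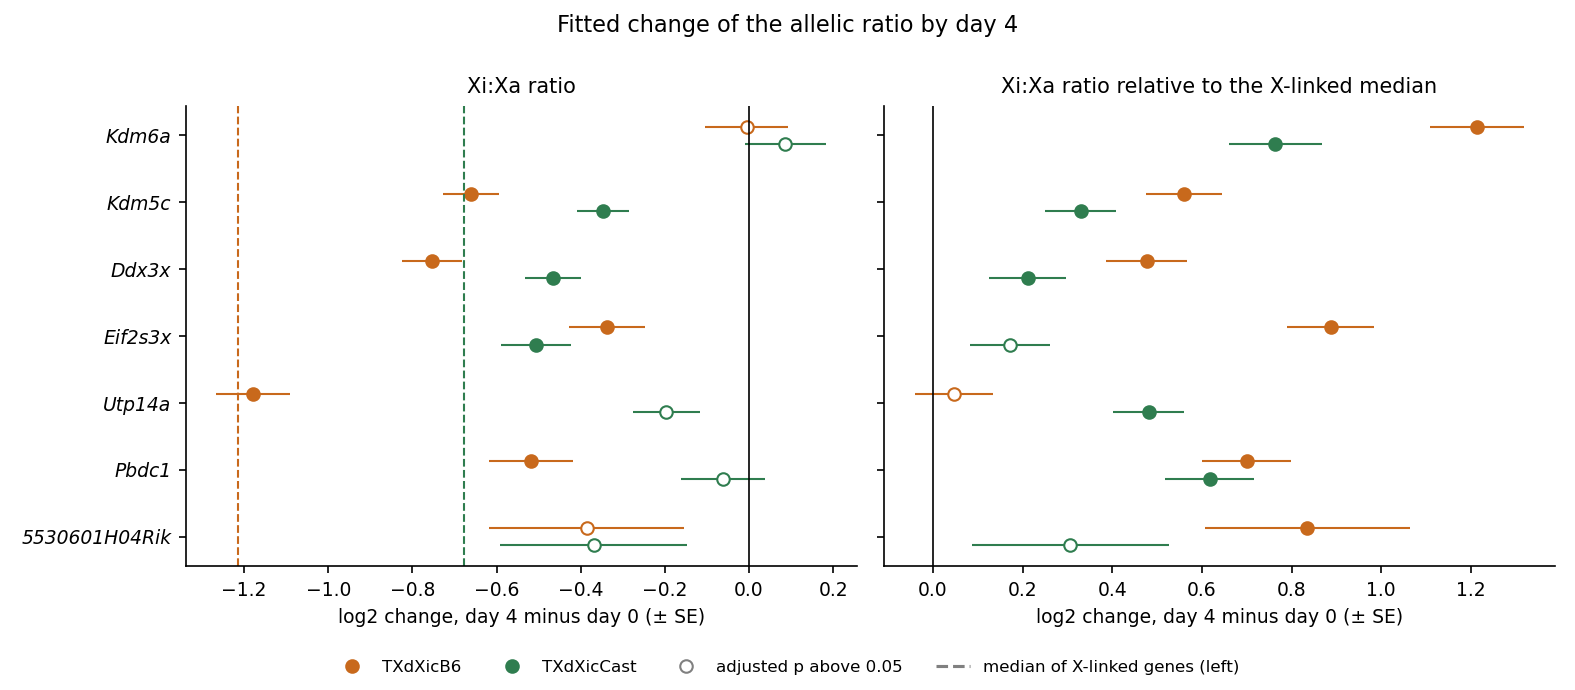
Fitted log2 change of the Xi:Xa ratio from day 0 to day 4 (x axis, ± SE) for each gene (y axis) in TXdXicB6 (orange) and TXdXicCast (green), as measured (left) and relative to the X-linked median (right), with open circles for adjusted p above 0.05 and dashed lines at the X-linked medians of -1.21 and -0.68. Kdm6a lies near 0 on the left in both lines, and the 2 values of Utp14a on the left lie at -1.18 and -0.20.

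The next comparison asked whether the change from day 0 to day 4 differed between the lines, that is between the Cast and the B6 chromosome as the inactive one. The fall was larger in TXdXicB6 for 4 of 7 genes, where 29.7% of X-linked genes showed this direction and 4.63% the opposite one. The difference was -0.98 for Utp14a (SE 0.12, adjusted p = 1.65e-10), -0.46 for Pbdc1 (SE 0.14, adjusted p = 0.00918), -0.31 for Kdm5c (SE 0.091, adjusted p = 0.00532) and -0.29 for Ddx3x (SE 0.098, adjusted p = 0.0207). It was -0.091 for Kdm6a (SE 0.14), 0.17 for Eif2s3x (SE 0.12) and -0.016 for 5530601H04Rik (SE 0.32), none of which passed. The X-linked median differed by -0.48 in the same direction, and 26.4% of autosomal genes differed between the lines in either direction. Cast is counted as inactive in TXdXicB6 and B6 in TXdXicCast, so a shift between strain alleles that both lines share also gives a difference here. The autosomal gene Dnmt3b, for example, changed by -0.70 in TXdXicB6 and 0.66 in TXdXicCast, both toward B6, and differed by -1.36. Such shared shifts cannot be told apart from an effect of the inactive chromosome in this contrast. The Pbdc1 call was lost without replicate 2 (-0.41, adjusted p = 0.13) and the Ddx3x call without replicate 3 (-0.12, adjusted p = 0.546). Measured from day 1 in place of day 0, the difference was -0.41 for Utp14a (adjusted p = 0.0053), -0.40 for Pbdc1 (adjusted p = 0.0124) and -0.62 for Ddx3x (adjusted p = 9.1e-08), and that of Kdm5c did not pass (-0.19, adjusted p = 0.134). Nor did those of Kdm6a (-0.18), Eif2s3x (-0.22) and 5530601H04Rik (-0.26).

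Set against the X-linked median of each line, 2 genes kept more of their ratio in TXdXicB6 (12.2% of X-linked genes did) and 1 kept less (12%). The first were Eif2s3x, with a difference of 0.72 (SE 0.13, adjusted p = 4.74e-06), and Kdm6a, with 0.45 (SE 0.15, adjusted p = 0.00927), and the other was Utp14a, with -0.43 (SE 0.12, adjusted p = 0.00166). Kdm5c, at 0.23, and Ddx3x, at 0.27, passed with the replicate block only (adjusted p = 0.106 and 0.0782 without it, 0.0371 and 0.0138 with it). For Kdm6a, Kdm5c, Ddx3x, Pbdc1 and 5530601H04Rik the sign thus turned with the reference, from negative as measured to positive against the median. From day 1, a setting added after the values were seen, the difference against the median was 0.11 for Utp14a (adjusted p = 0.494) and -0.10 for Ddx3x (adjusted p = 0.516), both of the opposite sign to that from day 0. Kdm6a (0.34, adjusted p = 0.0281), Kdm5c (0.34, adjusted p = 0.0138) and Eif2s3x (0.30, adjusted p = 0.0429) then passed. The day 4 shares of the lines did not overlap for Kdm5c, Ddx3x, Eif2s3x, Utp14a and Pbdc1, each with an exact two-sided permutation p of 0.1, the smallest that 3 against 3 libraries can give. The same held for the X-linked median (28.8% and 38.0%, p = 0.1), and 72.8% of 313 X-linked genes did not overlap, so that 5 of 7 lies near this background. They overlapped for Kdm6a (p = 0.7) and 5530601H04Rik (p = 1). With 8 such tests the adjusted values were 0.133, 0.8 and 1.

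**Figure D3:**
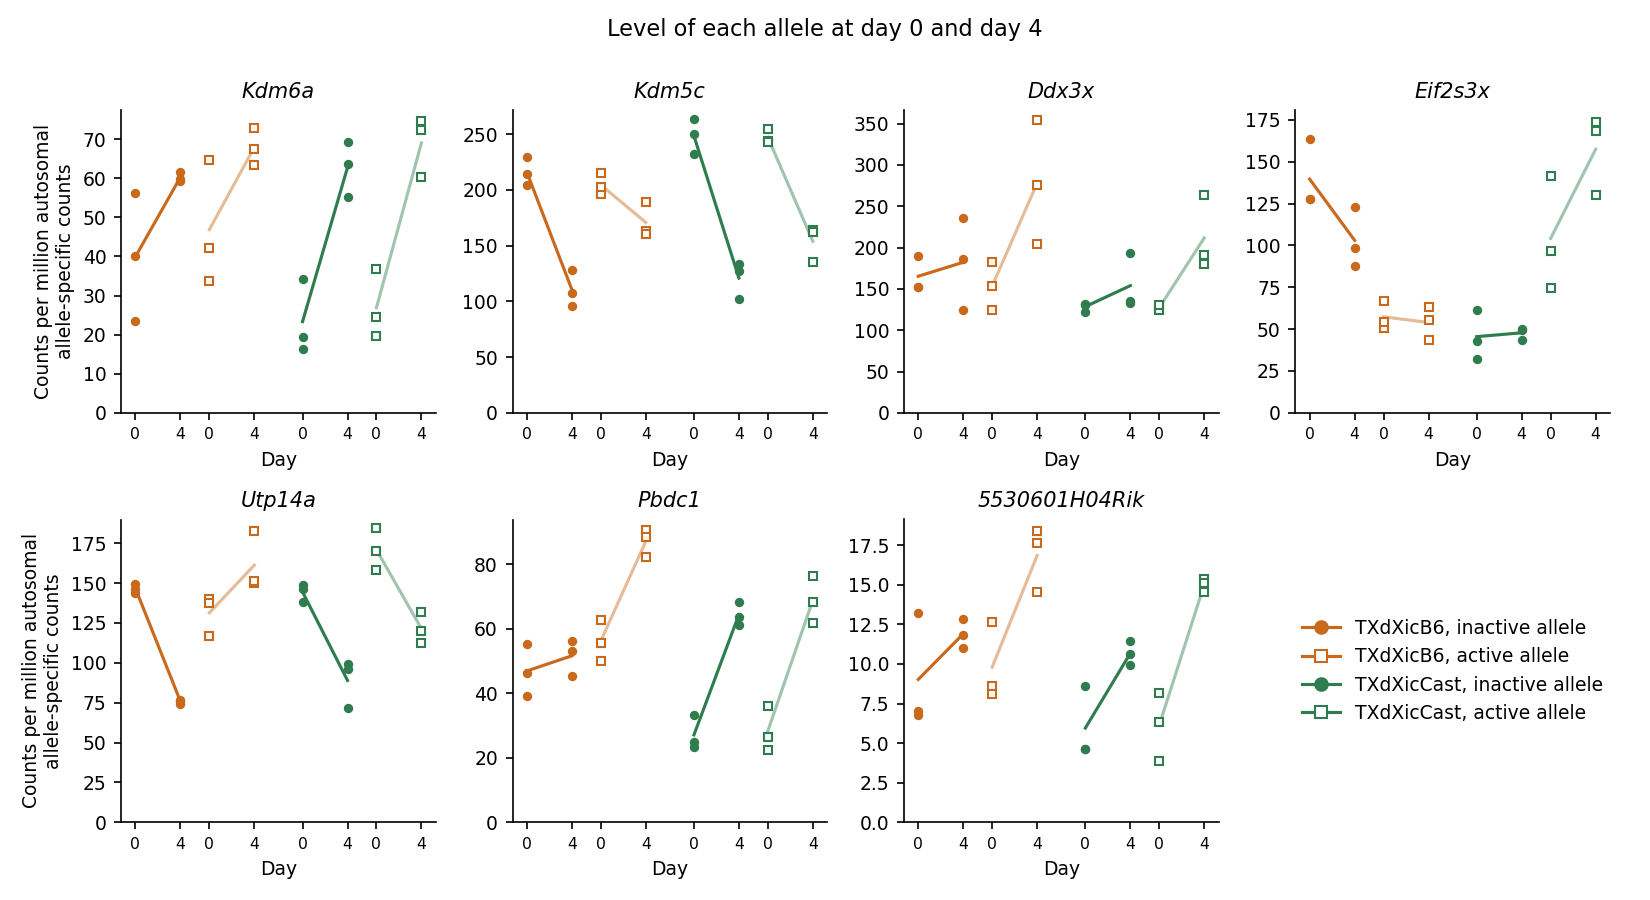
Level of the inactive (filled circles, dark lines) and the active allele (open squares, pale lines) of each gene on day 0 and day 4 (x axis), in counts scaled to 1000000 autosomal allele-specific counts (y axis, from 0), for TXdXicB6 (orange) and TXdXicCast (green), with 3 libraries per point set and lines through the means. In TXdXicB6 the inactive allele of Utp14a went from 146.6 to 75.8 while its active allele went from 131.4 to 161.2, and both alleles of Kdm6a were higher on day 4.

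A ratio can move through either allele, so each allele was also scaled to 1000000 autosomal allele-specific counts of its library and is described here without a test. The inactive allele of Utp14a in TXdXicB6 gave 146.4, 144.0 and 149.4 such counts on day 0 and 76.8, 74.3 and 76.3 on day 4, while the active allele gave 116.6, 140.1 and 137.3 on day 0 and 149.8, 151.5 and 182.3 on day 4. The alleles moved apart without overlap. Kdm6a showed the other pattern, with day 4 levels 1.51 times those of day 0 for the inactive and 1.45 times for the active allele in TXdXicB6, and 2.69 and 2.57 times in TXdXicCast, where the day 0 RNA was degraded. Pbdc1 in TXdXicCast resembled it, with 2.38 times for the inactive and 2.43 times for the active allele.

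Kdm5c was the 1 gene whose 2 alleles were both lower on day 4 in each line, with 0.51 times the day 0 level for the inactive and 0.84 times for the active allele in TXdXicB6 and 0.49 and 0.62 times in TXdXicCast. For Ddx3x the inactive allele hardly moved in TXdXicB6, at 1.10 times, and the active allele was at 1.81 times its day 0 level. The summed X-linked counts outside the deletion stood at 0.64 times for the inactive and 1.37 times for the active chromosome in TXdXicB6, and at 1.04 and 1.67 times in TXdXicCast. The inactive alleles of Kdm5c and Utp14a, the latter at 0.52 times, thus stood lower in TXdXicB6, relative to day 0, than the chromosome sum, and those of the other 5 genes did not.

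Total expression, over both alleles and all reads, was compared between day 4 and day 0 in each line. In TXdXicCast the reference is the degraded day 0 RNA, and totals were not measured from day 1. The demethylases went opposite ways in the deletion lines, while in TX1072 only Kdm5c was called, and the difference between them was not tested. Kdm5c fell in all 3 lines, from 529.2 ± 16.0 to 310.5 ± 38.0 CPM (SD, n = 3) in TXdXicB6 (log2 change -0.77, adjusted p = 2.62e-08), from 740.8 ± 81.5 to 316.8 ± 29.5 in TXdXicCast (-1.23, adjusted p = 2.51e-12) and from 364.4 ± 62.8 to 288.3 ± 24.4 in TX1072 (-0.34, adjusted p = 0.0153). Kdm6a rose from 145.4 ± 28.1 to 177.5 ± 1.81 in TXdXicB6 (0.29, adjusted p = 0.0149) and from 111.9 ± 12.3 to 181.1 ± 3.32 in TXdXicCast (0.69, adjusted p = 7.32e-07), and stood at 166.4 ± 14 and 179.8 ± 6.73 in TX1072 (0.11, adjusted p = 0.414). The Kdm6a call in TXdXicB6 was lost without replicate 1 (0.13, adjusted p = 0.335) or replicate 2 (0.32, adjusted p = 0.0904). The Kdm5c call in TX1072 was lost without replicate 1. Kdm6a levels were highest on day 2 or 3 in every line, at 216.9, 222.9 and 232.5 CPM.

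Utp14a also fell in all 3 lines, by 0.37, 0.97 and 0.42 on the log2 scale in TXdXicB6, TXdXicCast and TX1072. Eif2s3x fell in TXdXicB6 (-0.33, adjusted p = 0.000607) and TX1072 (-0.29, adjusted p = 0.00999) and was not called in TXdXicCast (-0.057). Without replicate 1 neither Utp14a nor Eif2s3x was called in TX1072. Ddx3x rose in TXdXicCast (0.60, adjusted p = 0.00165), and its change of 0.28 in TXdXicB6 passed with the replicate block only (adjusted p = 0.131 without and 0.0108 with it). The non-coding 5530601H04Rik rose in TXdXicB6 (0.54, adjusted p = 0.0212) and TXdXicCast (0.71, adjusted p = 0.00251) but not in TX1072 (-0.14), and the call in TXdXicB6 was lost without replicate 1 or 2. Its neighbour Pbdc1 was called in no line, with changes of 0.14, 0.0037 and 0.049.

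In all, 3 genes were lower and 2 higher in TXdXicB6, where 29.1% and 30.1% of all genes were. In TXdXicCast 2 were lower and 3 higher (33.7% and 36% of all genes), and in TX1072 3 were lower and 0 higher (30% and 29.8%). Among X-linked genes 40.7%, 33.3% and 40.7% were lower in the 3 lines. The TX1072 count fell to 0 without replicate 1 and to 1 without replicate 2, and the TXdXicB6 count from 5 to 3 without either of these.

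**Figure D4:**
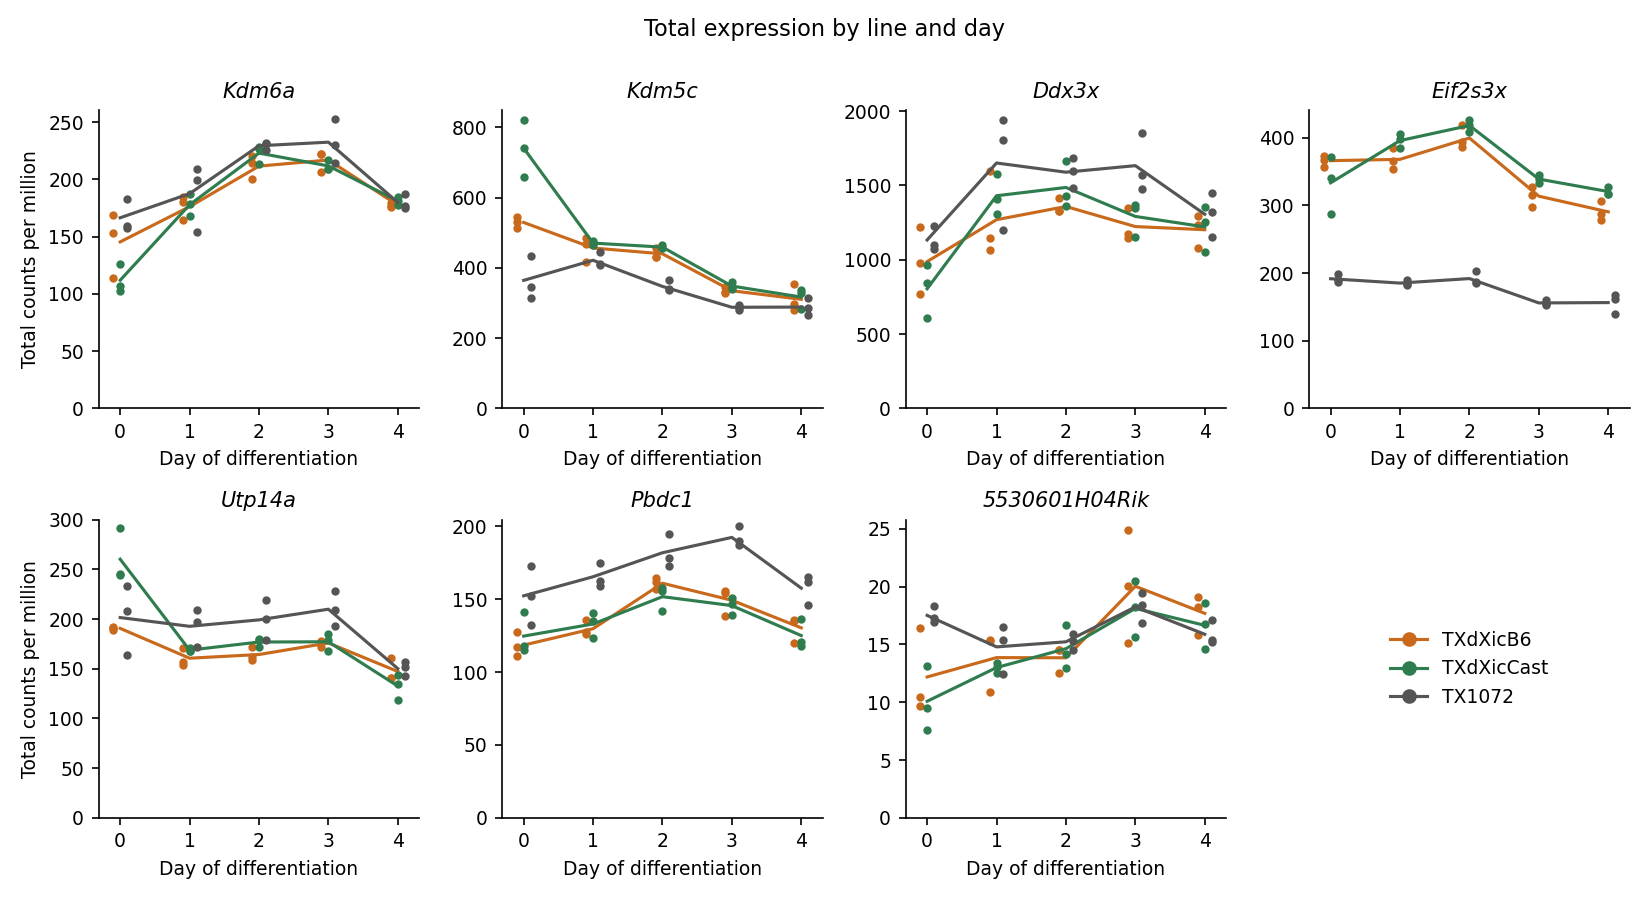
Total level in CPM (y axis, from 0) of each gene by day of differentiation (x axis) in TXdXicB6 (orange), TXdXicCast (green) and TX1072 (grey), with points for the 3 libraries and lines for their mean. Kdm5c ends near 300 in all 3 lines (310.5, 316.8 and 288.3) from different day 0 levels, and Kdm6a is highest on day 2 or 3.

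The cell state changed over the same days. Embryonic stem cell markers (Pou5f1, Sox2, Nanog, Esrrb and Zfp42) were lower on day 4 for 5 of 5 genes in each line, and their summed level went from 3588 to 1130 CPM in TXdXicB6, from 4284 to 881 in TXdXicCast and from 3443 to 912 in TX1072. Primed pluripotency markers (Dnmt3a, Dnmt3b, Fgf5 and Otx2) were higher for 4 of 4, with sums from 256 to 1361, from 355 to 906 and from 267 to 866. Fibroblast or feeder markers summed to 39.8, 64.4 and 25.8 CPM on day 0 and to 22.8, 29.7 and 19.0 on day 4, led on day 0 by Col1a1 or Col1a2, with 1 of the 5 markers at 0 on day 0 in each deletion line. Of these 5 markers, 2 were lower and 1 higher in TXdXicB6, 1 lower and 2 higher in TXdXicCast, and 2 lower and 2 higher in TX1072, with Col1a2 lower and Dcn higher in each line. Primitive endoderm markers summed to 11.8, 7.64 and 4.58 CPM on day 0 and to 29.4, 46.4 and 29.7 on day 4, led by Dab2, and of the 4 markers 2 were higher and 1 lower in TXdXicB6, 3 higher in TXdXicCast and 4 higher in TX1072. Their part in the changes of the escape genes was not tested.

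In single TX1072 cells either X chromosome can be the inactive one, and the allele from which Xist is made shows which. Of 2000 capture sites, 1472 cells are those retained by the study, with 43060 to 300322 UMIs each (median 132847), of which 13.9% were allele-specific. The cell names were all distinct, while the libraries reuse 398 capture positions. A cell was called MA-B6 or MA-Cast where its Xist UMIs all came from that 1 chromosome and numbered more than 5 with a known allele, and no doublet caller was run. There were 140 MA-B6 and 81 MA-Cast cells on days 3 and 4, and 260 cells without Xist on day 0. With 1 culture per day there is no test, and the Clopper-Pearson intervals (95%) cover counting error only. They take UMIs as independent and leave out the spread between cells, so they are likely too narrow where few cells give the UMIs.

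In MA-B6 cells of days 3 and 4 the B6 allele, which makes Xist, gave 24.8% of UMIs for the median of 251 X-linked genes with at least 25 UMIs. All 6 escape genes with at least 25 UMIs lay above it, which did not hold for unspliced UMIs. Pbdc1 gave 398 of 704 UMIs (56.5%, interval 52.8 to 60.2), Kdm5c 41 of 109 (37.6%, 28.5 to 47.4), 5530601H04Rik 20 of 54 (37.0%, 24.3 to 51.3) and Kdm6a 43 of 121 (35.5%, 27.0 to 44.8). Utp14a gave 242 of 702 (34.5%, 31 to 38.1) and Ddx3x 24 of 94 (25.5%, 17.1 to 35.6), the latter with the median inside its interval. The high Pbdc1 value has a bias beneath it, since in day 0 cells without Xist the B6 allele already gave 686 of 951 UMIs (72.1%, 69.2 to 75), while the X-linked median there was 50.6% and the bulk share of Pbdc1 from B6 in TX1072 was 50.2% ± 1.12 on day 0.

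In MA-Cast cells the Cast allele gave 16.2% of UMIs for the median of 197 X-linked genes. The non-coding 5530601H04Rik was highest with 40 of 64 UMIs (62.5%, 49.5 to 74.3), followed by Kdm6a with 24 of 72 (33.3%, 22.7 to 45.4), Ddx3x with 20 of 65 (30.8%, 19.9 to 43.4), Kdm5c with 13 of 45 (28.9%, 16.4 to 44.3) and Utp14a with 83 of 383 (21.7%, 17.6 to 26.1). The 40 UMIs of 5530601H04Rik came from 8 of 81 cells and its B6 UMIs from 9 cells, and no cell held both. Cast UMIs of Kdm5c came from 7 cells and those of Ddx3x from 8. Pbdc1 gave 65 of 372 (17.5%, 13.7 to 21.7), with the median inside its interval. Its Cast share started low, at 265 of 951 UMIs (27.9%, 25 to 30.8) in the day 0 cells without Xist, where the other 5 genes ran from 41.2% (Kdm6a) to 52.6% (Ddx3x). Eif2s3x had 3 allele-specific UMIs in the MA-B6 class and 0 in the other. The reads come from the 3′ end, and the last site of Eif2s3x that differs between the strains lies 2485 bases from the end of the transcript (2656 for Ddx3x, 76 for Pbdc1).

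Unspliced UMIs, counted in tables of their own, gave other values. In MA-B6 cells their X-linked median was 22.6%, and above it lay 5530601H04Rik with 30 of 55 (54.5%, 40.6 to 68.0), Kdm6a with 196 of 422 (46.4%, 41.6 to 51.3), Pbdc1 with 49 of 125 (39.2%, 30.6 to 48.3), Eif2s3x with 19 of 71 (26.8%, 16.9 to 38.6) and Kdm5c with 16 of 70 (22.9%, 13.7 to 34.4). Below it lay Utp14a with 24 of 112 (21.4%, 14.2 to 30.2) and Ddx3x with 3 of 27 (11.1%, 2.35 to 29.2). In MA-Cast cells the median was 14.3%, and all 7 genes lay above it. Ddx3x gave 32 of 48 (66.7%, 51.6 to 79.6), Eif2s3x 16 of 25 (64%, 42.5 to 82.0), Pbdc1 14 of 30 (46.7%, 28.3 to 65.7), Kdm5c 10 of 23 (43.5%, 23.2 to 65.5), Kdm6a 111 of 261 (42.5%, 36.5 to 48.8), 5530601H04Rik 8 of 23 (34.8%, 16.4 to 57.3) and Utp14a 13 of 53 (24.5%, 13.8 to 38.3). No day 0 share was taken for unspliced UMIs, so these shares are not set against a strain bias. Ddx3x and Eif2s3x gave most unspliced UMIs from Cast in both classes, with B6 at only 11.1% and 26.8% in MA-B6 cells. Their high values in MA-Cast cells can therefore not be told apart from such a bias. The order of the genes was thus another one, and 5530601H04Rik was not the highest in MA-Cast cells.

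Over all 7 genes, 768 of 1787 UMIs (43.0%, 40.7 to 45.3) came from the Xist-making allele in MA-B6 cells, beside 28.6% of all X-linked UMIs, and 245 of 1001 (24.5%, 21.8 to 27.3) in MA-Cast cells, beside 19.2%. Pbdc1 and Utp14a gave most of both sums, and without Pbdc1, a sum added after the values were seen, the other 6 genes gave 370 of 1083 (34.2%, 31.3 to 37.1) and 180 of 629 (28.6%, 25.1 to 32.3). Among genes known to be silenced, Rlim gave 6.21% and Hprt 30.6% in MA-B6 cells, and 7.09% and 7.66% in MA-Cast cells. Total levels differed between the classes on day 4 by more than counting error for Ddx3x, with 990.3 CPM (973.8 to 1007) in MA-B6 and 814.6 (793.7 to 835.8) in MA-Cast cells, for Utp14a, with 257.8 (249.4 to 266.4) and 188.2 (178.2 to 198.5), and for Pbdc1, with 463.9 (452.6 to 475.4) and 410.7 (396.0 to 425.9). Eif2s3x differed the other way, with 8.11 CPM (6.68 to 9.75) and 12.4 (9.96 to 15.3). The intervals of the other genes overlapped, Kdm6a among them at 86.9 and 88.7 CPM. On day 3 the intervals of Kdm6a, at 121.7 CPM (114.1 to 129.6) in MA-B6 and 101.4 (92.5 to 111.0) in MA-Cast cells, did not overlap, nor did those of Kdm5c (138.3 and 93.5 CPM), Ddx3x and Pbdc1, all higher in MA-B6 cells. Those of Utp14a, at 293.4 and 292.6 CPM, overlapped on that day, as did those of Eif2s3x and 5530601H04Rik. These values come from 1 culture and have no replicate check. They are given without the share of all genes whose intervals do not overlap, so nothing particular to these genes is read from them.

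**Figure D5:**
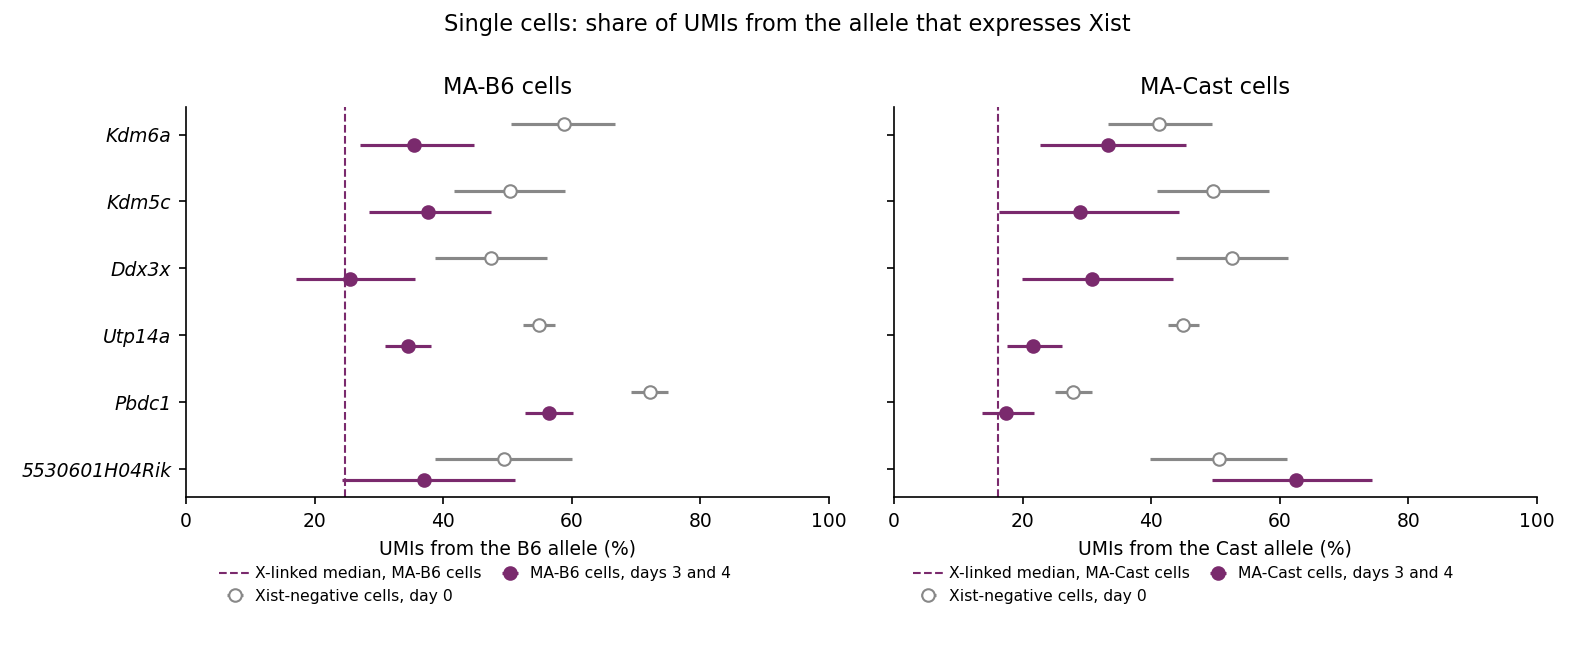
Share of single-cell UMIs from B6 in MA-B6 cells (left) and from Cast in MA-Cast cells (right) on days 3 and 4 (purple, x axis in percent, bars are 95% Clopper-Pearson intervals) for 6 genes (y axis), beside the share of the same allele in day 0 cells without Xist (grey, open), with dashed lines at the X-linked medians of 24.8% and 16.2%. Pbdc1 is far to the B6 side in the grey points (72.1%), and 5530601H04Rik is the highest purple point on the right (62.5%).

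Lists of related genes give the scale. Of 7 X-linked genes known to be silenced (Pgk1, Hprt, G6pdx, Atrx, Huwe1, Rlim and Cul4b), 7 had a lower Xi:Xa ratio on day 4 in TXdXicB6 and 6 in TXdXicCast, with medians of -1.16 and -0.66, beside -0.52 and -0.35 for the 7 escape genes. Pgk1, a glycolytic enzyme gene, changed by -2.11 and -0.93, and Hprt, a purine salvage gene, by -1.70 and -0.67. The exception was Cul4b, a ubiquitin ligase gene, at -0.15 in TXdXicCast (adjusted p = 0.142). Against the X-linked median, 2 of these 7 had gained in TXdXicB6 (Atrx and Huwe1) and 1 in TXdXicCast (Cul4b), beside 6 and 5 of the 7 escape genes.

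Of 8 further genes reported to escape in mouse tissues, 7 were tested, of which Ftx and Jpx lie inside the deleted region and have no allelic value here. Of the 5 outside it, 2 were lower in TXdXicB6 and 3 in TXdXicCast. Shroom4, a cytoskeletal regulator, was lower in both (-0.82 and -0.85), and Mid1, a ubiquitin ligase gene, in TXdXicB6 (-1.96, adjusted p = 0.00115) but not in TXdXicCast (0.57, adjusted p = 0.226), with a difference between the lines of -2.53 (adjusted p = 0.00029). Car5b, a carbonic anhydrase gene, was called in TXdXicCast (-1.93, adjusted p = 0.0431) but not with the replicate block (0.0804). The gene 1810030O07Rik changed by -0.064 in TXdXicB6 (adjusted p = 0.888) and by -0.67 in TXdXicCast (adjusted p = 2.5e-05). In total counts 6 of the 7 rose in each line and 1810030O07Rik fell (-0.62, -0.53 and -0.67).

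The Y homologues of the first 4 genes (Uty, Kdm5d, Ddx3y and Eif2s3y) were at 0 in every library of the deletion lines, and none of them passed 0.063 CPM in any TX1072 library. Of 12 autosomal relatives and partners, 11 were tested, and 7 had lower totals on day 4 in each line, among them Kdm5b, a relative of Kdm5c (-1.02, -1.45 and -1.16), Kdm6b, a relative of Kdm6a (-0.97, -1.51 and -0.73), and Kmt2c, a methyltransferase of the complex that holds Kdm6a (-1.10, -1.13 and -1.15). In the Xi:Xa comparison, where these genes label the 2 parental alleles and not an inactive X, 1 was lower and 1 higher in TXdXicB6 and 3 were lower and 3 higher in TXdXicCast. Utp14b, an intronless relative of Utp14a, changed by -0.36 and 0.46. Utp14b and D1Pas1, an intronless relative of Ddx3x, may share reads with Utp14a and Ddx3x, and their values are uncertain to that extent.

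Genes whose allelic course was most like that of the escape genes were sought among 325 other X-linked genes with at least 50 allele-specific counts in every line and day, by the Euclidean distance of their 8 values (days 1 to 4 in both lines) to the median profile of the 7. That profile ran through 0.081, -0.18, -0.34 and -0.52 in TXdXicB6 and 0.099, -0.12, -0.12 and -0.32 in TXdXicCast, beside -0.022, -0.50, -0.90 and -1.19 and 0.055, -0.30, -0.51 and -0.64 for the median of 332 X-linked genes. The 5 nearest were Igbp1 (distance 0.242), Renbp (0.305), Uba1 (0.320), Eda2r (0.345) and Rbm3 (0.367). Uba1 encodes a ubiquitin-activating enzyme and Rbm3 a cold-induced RNA-binding protein. Their day 4 changes ran from -0.49 (Igbp1) to -0.67 (Uba1) in TXdXicB6 and from -0.24 (Rbm3) to -0.52 (Eda2r) in TXdXicCast. These 5 were picked for this likeness, so their values are a description.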

How the data were processed

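The authors aligned reads with STAR 2.5.2b to an mm10 (GRCm38) genome in which sites that differ between B6 and Cast were masked, assigned reads to alleles with SNPsplit, and counted them per gene with featureCounts (bulk) or as UMIs (single cells). The deposited values are raw counts, in tables of total, B6 and Cast counts per library. Reads that cross no differing site carry no allele, so genes with few such sites have less precise allelic values. Gene positions and exons are from GENCODE vM21.

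From these counts, allele-specific counts of all 15283 genes tested were fitted with edgeR 4.0.16 (R 4.3.3, quasi-likelihood test) over the 30 deletion-line libraries, with 2 columns per library (60 in all), a term per library and an allele term per line and day, and Benjamini-Hochberg adjustment over all genes tested. A call is an adjusted p under 0.05. The relative fit set the median Xi:Xa ratio of X-linked genes of each library to 0. Totals were fitted with TMM factors from autosomal genes, over 19885 genes (deletion lines) and 18871 genes (TX1072). Shares, single-cell sums with exact 95% intervals and figures were made in Python 3.11.15 (pandas 2.3.3, numpy 2.4.6, scipy 1.17.1, matplotlib 3.10.9). Alternatives included DESeq2 1.42.0, other filters and scalings, day 1 as the baseline, the replicate block and leaving out each replicate. The single-cell groups are this work's own, set by Xist UMIs alone, over cells that the study retained.

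On simulated counts (3619 genes, TXdXicB6 day 4) the allelic fit recovered 18 of 46 genes changed by -0.5 and 32 of 40 changed by -1 on the log2 scale, with 7 false calls.

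Replicates are differentiations that the study's reporting summary places on different days, so the p-values measure the spread between differentiations of 1 clone. The replicate numbers therefore pair the samples. Deviations of log2 CPM from the group means had a median correlation of 0.365 between same-numbered deletion-line libraries (53 of 60 over 0.1) and of -0.246 between others. For log2 Xi:Xa ratios it was 0.040 and -0.010. No pair of libraries agreed within sampling noise.

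The genes named are the 7 escape genes, Xist, lists of further escape, silenced, Y-linked and autosomal related genes and cell type markers with values for at most 4 of each, and the 5 X-linked genes nearest in profile. Of the list of silenced genes, 1 further gene is not reported here. The members and lists were chosen with earlier results of these data known.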

Additional observations from a re-analysis of the deposited data

Results flagged for a closer look

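The change of the log2 Xi:Xa ratio from day 0 to day 4 differed between TXdXicB6 and TXdXicCast, by the edgeR test of the difference itself, for Utp14a (-0.98, adjusted p = 1.65e-10), Pbdc1 (-0.46, adjusted p = 0.00918), Kdm5c (-0.31, adjusted p = 0.00532) and Ddx3x (-0.29, adjusted p = 0.0207). The X-linked median differed by -0.48 between the same lines, and against it only the Utp14a difference stayed negative (-0.43), but from day 1 it was 0.11 (adjusted p = 0.494). The calls of Pbdc1 without replicate 2 (adjusted p = 0.13), Ddx3x without replicate 3 (adjusted p = 0.546) and Kdm5c from day 1 (adjusted p = 0.134) were lost. Each line is 1 clone, so clone and parental chromosome cannot be told apart. A shift between strain alleles that both lines share would also give such a difference and was not separated from it. None of the 35 sets of single-cell levels by gene and day held a capture column far from the other 9 by Dixon's criterion.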

How the results depend on the processing

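Counts of genes with a lower Xi:Xa ratio on day 4 stayed within 1.5 times of 5 (TXdXicB6) and 3 (TXdXicCast) in every alternative run, and within 4 to 5 and 3 to 4 when a replicate was left out. When a replicate was left out, the counts gaining on the X-linked median ran from 6 to 6 and from 4 to 5. The count differing between lines then ran from 3 to 4. Measured from day 1, Utp14a also gained on the median in TXdXicB6 and Eif2s3x in TXdXicCast, as given above. Total counts were less firm. In TX1072, 1 gene was called with no filter on low counts and 0 to 2 without a replicate (3 as reported), and in TXdXicB6 3 to 5 without a replicate. The X-linked median share was 31.6% from summed counts in TXdXicB6, and 37.8% with a minimum of 10 counts in TXdXicCast.

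Several values changed sign, some of them called. Kdm6a in TXdXicB6 was 0.014 with the replicate block, 0.032 without replicate 2 and 0.0027 with an autosomal offset, and -0.032 from day 1 in TXdXicCast. Utp14a against the median in TXdXicB6 ran from -0.023 to 0.11 without a replicate and was -0.095 with a summed centre. The line difference of 5530601H04Rik was 0.00043 with DESeq2, 0.035 with the block and ran from -0.26 to 0.46 without a replicate, and that of Eif2s3x -0.22 from day 1. Centring turned the difference to 0.45 (Kdm6a), 0.23 (Kdm5c), 0.27 (Ddx3x), 0.082 (Pbdc1) and 0.53 (5530601H04Rik). Total changes of Pbdc1 were -0.0019 with no filter in TXdXicCast and, without a replicate, ran from -0.11 to 0.15 there and from -0.059 to 0.14 in TX1072, and those of Eif2s3x in TXdXicCast from -0.15 to 0.052. The cause was not tested.

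The replicate block changed no call of the 7 genes on day 4 other than those given above. Unspliced UMIs moved most single-cell shares, in both directions, as given above. The gene 5530601H04Rik had the fewest allele-specific counts, 20 to 522 per library, and the bulk values of Eif2s3x rest on 2 sites.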
